A study of Mus musculus with 6 samples.

Results

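The Smad family of signal transducers and the corepressors *Ski* and *Skil* were examined in cardiac fibroblasts (CFs) from wild type (WT) and CharmeKO mice. The 10 genes were chosen by name, as the 8 mouse Smads plus *Ski* and *Skil*, and all 10 were found among the 19446 genes of the table. Every one of them passed the filter on low values, which kept the 15948 genes that reached 10 reads in 2 or more libraries. RNA-seq had been performed on CFs grown in culture, with 3 libraries from WT and 3 from CharmeKO mice of the C57BL/6J strain, labelled as 5 weeks old. In CharmeKO, transcription of *Charme*, a long non-coding RNA of heart and skeletal muscle, is stopped early by an inserted polyadenylation signal. The cells of both groups had grown out of atrial tissue, collected from littermates according to the methods of the study, on fibronectin in IMDM with 20% FBS. They were early-passage cells that had received no TGF-β1, so the values describe CFs in serum and not a response to added ligand.

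Smads carry the signal of the TGF-β superfamily from the membrane to the nucleus. Receptors for TGF-β and activin phosphorylate the receptor-regulated Smads *Smad2* and *Smad3*. Receptors for bone morphogenetic proteins (BMPs) phosphorylate *Smad1*, *Smad5* and *Smad9*, and both kinds of Smad join the common Smad, *Smad4*. *Smad6* and *Smad7* are inhibitory Smads, induced by the pathways that they restrain, and *Ski* and *Skil* (also known as SnoN) hold Smad complexes in a repressed state. In the heart the pathway is known above all for the conversion of CFs into myofibroblasts and for the production of extracellular matrix. The study asked how genes of the TGF-β pathway are expressed in CharmeKO CFs.

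What separates receptor-regulated from inhibitory Smads can be read at the end of the coding sequence, and these ends are shown because the results are ordered by that division. Phosphorylation takes place on serines of the C-terminal tail. The last 4 codons before the stop codon are in capitals and the stop codon is in lower case (GENCODE transcripts, GRCm38, 5′ to 3′ on the coding strand).
Smad1: TCATCCGTGTCTtaa
Smad5: TCTTCTGTTTCAtag
Smad9: TCTTCAGTGTCTtaa
Smad3: TCCAGTGTGTCTtag
Smad6: AACAACCACAGAtag
The 4 receptor-regulated Smads shown end in the same Ser-Ser-Val-Ser codon order with different bases, whereas *Smad6* ends in other codons. They lie at chr8:79339649-79339663, chr13:56737464-56737478, chr3:54797487-54797501, chr9:63650262-63650276 and chr9:63953524-63953538 in the order printed, on the minus strand for *Smad1*, *Smad3* and *Smad6*. Over the aligned coding bases, *Smad1* was 77.2% identical to *Smad5* and 77.3% to *Smad9*, *Smad2* was 77.1% identical to *Smad3*, *Smad6* was 66.4% identical to *Smad7* and *Ski* was 59.0% identical to *Skil*. At these identities no pair of members is a near-identical copy.

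Libraries held 38330019 to 46797446 reads assigned to genes. A single read was worth 0.870 to 1.10 normalised reads, the unit of all values below (listed for the libraries numbered 1, 2 and 3 in turn), so that the least abundant member, *Smad9*, still rested on over 100 normalised reads in every library. All 11 fibroblast markers were present in each library, at levels that varied (*Thy1* 2658 to 29470, *Tcf21* 199 to 1764). Of 9 cardiomyocyte markers, 6 (*Myh6*, *Myh7*, *Actc1*, *Myl7*, *Nppa* and *Pln*) were not among the genes of the table. The other 3 were present: *Tnnt2* at 57.1 to 757 normalised reads, *Tnni3* at 12.8 to 97.3 and *Ryr2* at 0 to 4.92. The feature taken as *Charme*, an inference from its identifier, was lower in CharmeKO for each replicate number, with 5, 15 and 11 reads in WT against 0, 6 and 3, but did not pass the test across all genes (log2 fold change -1.91, SE 0.911, limma adjusted p = 0.9999). Libraries with the same replicate number are called pairs here, since their deviations from the group means correlated across genes with r = 0.762, 0.514 and 0.217 for numbers 1, 2 and 3. The third pair was the weakest, as WT 2 and CharmeKO 3 correlated with r = 0.222.

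The members were first ranked by their level per kb of exon. *Ski* was the most abundant, with 2253 ± 538 normalised reads per kb (mean ± SD over 6 libraries), followed by *Smad7* with 1552 ± 479. Negative regulators thus occupied the first and second place. *Smad4* and *Smad3* came next at an equal level of 1066 ± 126 and 1066 ± 159, *Smad4* being the higher in 2 of 6 libraries. *Smad6* had 717 ± 283, *Smad1* 475 ± 110.2, *Skil* 433 ± 119 and *Smad5* 336 ± 84.2 normalised reads per kb. *Smad2*, with 201 ± 25.6, and *Smad9*, with 57.8 ± 19.7, were the lowest. Of the 9 steps between neighbours in this order, 3 went the same way in 6 of 6 libraries, namely *Ski* above *Smad7*, *Smad5* above *Smad2* and *Smad2* above *Smad9*. The remaining 6 steps, among them *Smad1* above *Skil* in 3 of 6 libraries, changed direction in at least 1 library. In 5 of these 6 the mean log2 difference was smaller than its SD, and the exception was *Smad3* above *Smad6* (0.65 ± 0.532, in 5 of 6 libraries).

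**Figure D1:**
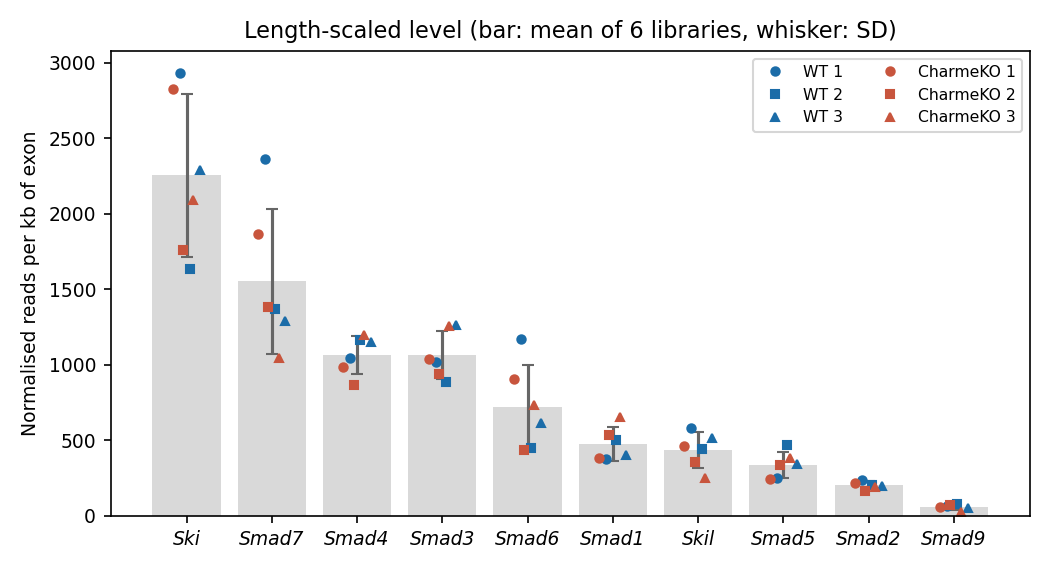
Normalised reads per kb of exon for each member, ordered by the mean over 6 libraries (bars, with SD as whiskers), with each library as a point coloured by genotype and shaped by replicate number. *Ski* stands at 2253 and *Smad9* at 57.8 normalised reads per kb, and *Smad4* and *Smad3* lie at the same level.

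Within the TGF-β branch *Smad3* exceeded *Smad2* per kb in every library. The log2 ratio of *Smad3* to *Smad2* was 2.10, 2.14 and 2.67 in the WT libraries and 2.26, 2.55 and 2.71 in the CharmeKO libraries. Its means of 2.31 ± 0.318 in WT and 2.50 ± 0.228 in CharmeKO (SD, n = 3) differed by 0.198, which is less than the SD within WT. The summed BMP Smads stood below the summed TGF-β Smads in every library, at a log2 ratio per kb of -0.59 ± 0.476 in WT and -0.52 ± 0.335 in CharmeKO, and the closest approach was in WT 2 (-0.045). *Smad7* took between 13.4% and 23.6% of the summed level of the 10 members per kb, *Ski* between 22.7% and 31.5%, and *Smad9* between 0.293% and 1.11%.

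The genotypes were then compared gene by gene with limma on log2(value + 1). None of the 10 members had an adjusted p under 0.05, the same as for the whole table, where 0% of 15948 genes did (limma, Benjamini-Hochberg, lowest adjusted p = 0.9999). At an unadjusted p under 0.05 there were 0 members, against 143 genes or 0.897% of those tested, and edgeR and DESeq2 on the recovered reads called 0 members each, with 0 and 8 genes of the table called. For none of the 10 did the WT and CharmeKO libraries fail to overlap, as they failed for 4.11% of all genes. The median log2 fold change of the members was -0.14 and that of all genes tested 0.0022, and the median size of the change without its sign was 0.156 for the members and 0.169 for all genes. No member reached a change of 1.5-fold, which 13.2% of all genes did. Fold changes are on the log2(value + 1) scale and are given as CharmeKO minus WT, and p-values measure the spread between these libraries.

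**Figure D2:**
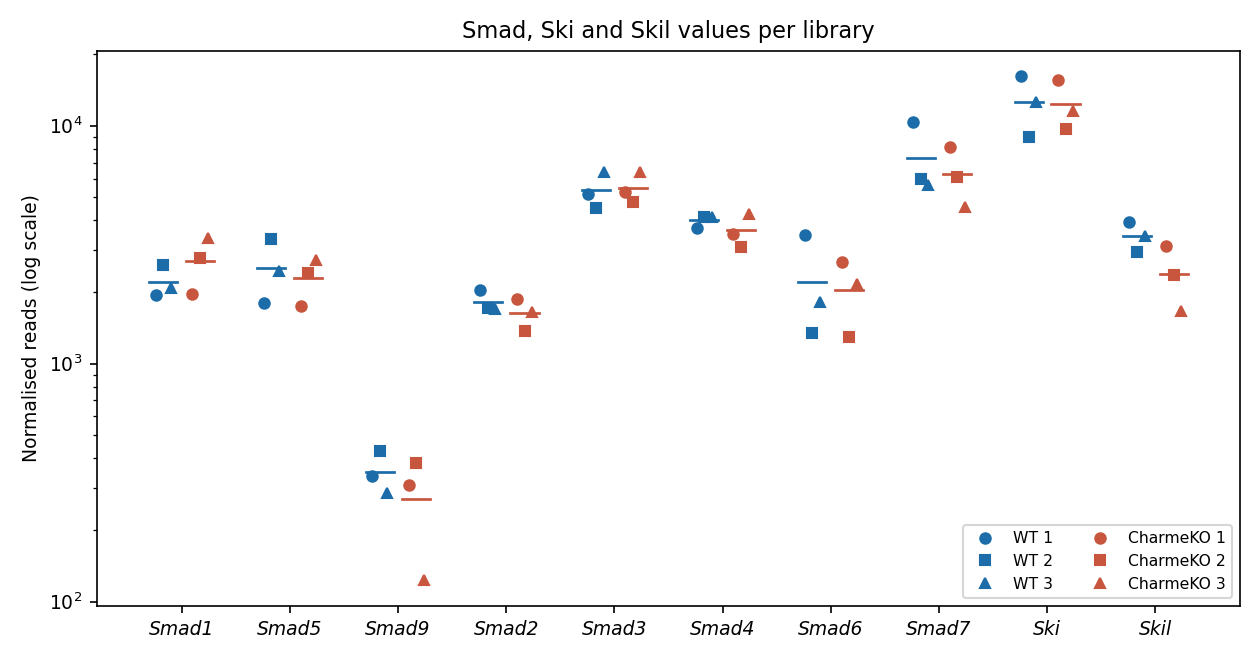
Normalised reads (log scale) of each member in the 6 libraries, WT in blue and CharmeKO in red, with the replicate number as the shape of the point and a line at each group mean. The WT and CharmeKO points overlap for all 10 genes, and CharmeKO 3 is the lowest library for *Smad9* and *Skil*.

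Among the BMP-activated Smads, *Smad1* (ENSMUSG00000031681, chromosome 8, 79338395 to 79399518, GRCm38) had 1949, 2607 and 2069.8 normalised reads in the WT libraries and 1963, 2770.4 and 3381 in the CharmeKO libraries. The libraries numbered 1 were alike, and CharmeKO 3 was the highest of all. Within the pairs the differences were 0.011, 0.088 and 0.71, for a log2 fold change of 0.27 (SE 0.24, 95% interval -0.31 to 0.85). *Smad1* was the only member higher in CharmeKO in all 3 pairs, as were 16.4% of all genes tested, and 2 of its 3 pair differences were under 0.1.

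*Smad5* (ENSMUSG00000021540, chromosome 13, 56703010 to 56742377), the closest relative of *Smad1* by coding identity together with *Smad9*, had 1792, 3357 and 2454 normalised reads in the WT libraries and 1748, 2394 and 2735 in the CharmeKO libraries. WT 2 was the highest library and CharmeKO 1 the lowest, and the pairs went in both directions (-0.036, -0.49 and 0.16). Its log2 fold change of -0.12 (SE 0.28, 95% interval -0.81 to 0.56) turned to 0.10 without WT 2. In the reference used here, 3 small genes (Gm27301, Gm27834 and Gm27271) overlap *Smad5* on the same strand, and whether they took reads from it was not tested.

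*Smad9* (ENSMUSG00000027796, chromosome 3, 54755582 to 54801257), the least abundant receptor-regulated Smad, had 336, 429 and 285 normalised reads in the WT libraries and 308, 382 and 123 in the CharmeKO libraries. A single library stood apart, CharmeKO 3, at less than the level of any other. Its log2 fold change of -0.50 (SE 0.46, 95% interval -1.61 to 0.61) had the widest interval among the 10 genes. All 3 pairs were lower in CharmeKO (-0.13, -0.17 and -1.21), as in 14% of all genes tested, but without CharmeKO 3 the fold change was -0.0077.

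In the TGF-β branch, *Smad2*, which like *Smad4* and *Smad7* lies on chromosome 18, had 2033, 1721 and 1699.5 normalised reads in the WT libraries and 1866, 1376 and 1653 in the CharmeKO libraries. Each CharmeKO library was lower than the WT library of its number, while the values of the groups overlapped. The log2 fold change was -0.16 (SE 0.18, 95% interval -0.59 to 0.27), with pair differences of -0.12, -0.32 and -0.040. With the replicate number as a block the SE was 0.10 and the interval -0.43 to 0.11, which includes 0.

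*Smad3* (ENSMUSG00000032402, chromosome 9, 63646767 to 63757994), the Smad that binds DNA directly in the TGF-β branch, was the member with the smallest differences within the pairs. It had 5172, 4505 and 6418 normalised reads in the WT libraries and 5283, 4768 and 6394 in the CharmeKO libraries. The order of the replicate numbers was the same in both groups, and no pair differed by as much as 0.1 on the log2 scale (0.031, 0.082 and -0.0053). The log2 fold change was 0.036 (SE 0.20, 95% interval -0.45 to 0.52). With the replicate number as a block its interval was -0.18 to 0.25, which reaches 1.5-fold in neither direction. The same held for the blocked intervals of *Smad2*, *Smad4*, *Smad5*, *Smad6*, *Smad7* and *Ski*, and not for those of *Smad1*, *Smad9* and *Skil*.

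*Smad4*, the common partner, had 3724, 4149 and 4116 normalised reads in the WT libraries and 3509, 3105 and 4270.4 in the CharmeKO libraries. It varied least over the 6 libraries, with the highest value 1.38 times the lowest. CharmeKO 2 was the lowest library and CharmeKO 3 the highest, and the log2 fold change was -0.15 (SE 0.17, 95% interval -0.56 to 0.26). One gene, AC132418.2, overlaps *Smad4* on the opposite strand, and the counting was stated to use strand.

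**Figure D3:**
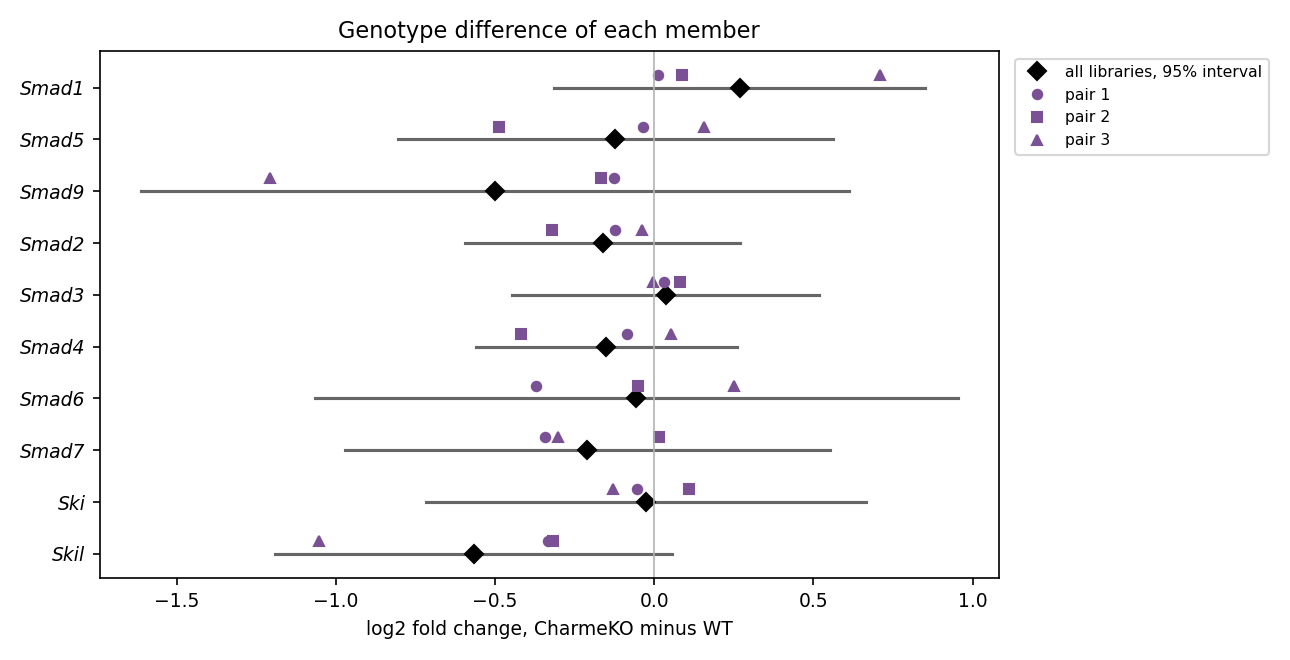
Log2 fold change of CharmeKO against WT for each member (diamonds, with the 95% interval from limma without the replicate number as lines) and the difference within each same-numbered pair (purple points above). All 10 intervals include 0, *Skil* from -1.19 to 0.056, and pair 3 is the largest difference for *Smad1*, *Smad9* and *Skil*.

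The inhibitory Smads, like every other member except *Skil*, had more of their variance between replicate numbers than between genotypes. Over all genes tested the medians were 73.8% for the replicate number and 5.91% for genotype. *Smad6* (ENSMUSG00000036867, chromosome 9, 63953076 to 64022059), which acts mainly on BMP signalling, had 3475, 1339 and 1820.4 normalised reads in the WT libraries and 2685, 1294 and 2167 in the CharmeKO libraries. Both libraries numbered 1 were the highest and both numbered 2 the lowest. The log2 fold change of -0.057 (SE 0.42, 95% interval -1.07 to 0.95) was small beside the difference of -1.21 between numbers 2 and 1, and it was 0.33 without WT 1.

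*Smad7*, which restrains both branches, had 10351, 5996 and 5637 normalised reads in the WT libraries and 8167, 6059 and 4569.6 in the CharmeKO libraries. Again the libraries numbered 1 were the highest in each group, and CharmeKO 3 was the lowest. Pair differences of -0.34, 0.015 and -0.30 gave a log2 fold change of -0.21 (SE 0.32, 95% interval -0.97 to 0.55). Set against the 5 receptor-regulated Smads per kb, the summed inhibitory Smads had a log2 ratio of 0.86, -0.23 and -0.25 in the WT libraries and 0.52, -0.16 and -0.50 in the CharmeKO libraries. They therefore exceeded the receptor-regulated Smads in the libraries numbered 1 of both genotypes and in no other, and the genotype means (0.13 ± 0.637 in WT, -0.049 ± 0.518 in CharmeKO) differed by less than either SD.

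The promoters of *Smad6* and *Smad9* are shown because these genes varied most over the libraries, with an SD on the log2 scale of 0.562 and 0.641. Each run covers 120 bases before and 20 bases after the annotated start, 5′ to 3′ on the strand of the gene (RefSeq, GRCm38.p6), at chr9:64022040-64022179 on the minus strand for *Smad6* and chr3:54755462-54755601 on the plus strand for *Smad9*. The searched motifs were the Smad-binding CAGAC on both strands, its palindromic form GTCTAGAC, which reads AGAC on both strands but holds no CAGAC, and the GC-rich GGCGCC described for BMP Smads. Capitals mark GTCTAGAC in *Smad6* and GGCGCC in *Smad9*.
Smad6: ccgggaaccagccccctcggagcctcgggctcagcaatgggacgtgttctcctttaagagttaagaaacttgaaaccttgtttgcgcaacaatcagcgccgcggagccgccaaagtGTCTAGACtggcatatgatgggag
Smad9: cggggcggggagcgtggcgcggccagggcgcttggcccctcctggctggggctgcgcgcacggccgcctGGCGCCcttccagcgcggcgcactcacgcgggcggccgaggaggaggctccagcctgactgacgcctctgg
GTCTAGAC began 4 bases before the start of *Smad6* and was held by 70 of 32851 mouse promoters of 300 bases (0.213%). GGCGCC began 51 bases before the start of *Smad9* and was far more common, in 11.9% of promoters. CAGAC, which 49.6% of promoters held, was in neither of the *Smad6* and *Smad9* windows. The GC content of the windows was 66.3% for *Smad6* and 73.7% for *Smad9*, against a median of 52.7%. Such matches describe the letters of the window, and binding was not measured.

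The corepressors *Ski* and *Skil* are paralogs and were compared side by side. *Ski* (ENSMUSG00000029050, chromosome 4, 155154075 to 155222592) had 16186, 9002 and 12618 normalised reads in the WT libraries and 15603, 9702 and 11538 in the CharmeKO libraries. Number 1 was the highest and number 2 the lowest in both groups, and the pairs were nearly level (-0.053, 0.11 and -0.13), with a log2 fold change of -0.025 (SE 0.29, 95% interval -0.72 to 0.67).

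*Skil* (ENSMUSG00000027660, chromosome 3, 31095058 to 31122577), which is itself a target of TGF-β signalling, had the largest fold change of the 10 genes. It had 3921, 2948 and 3445 normalised reads in the WT libraries and 3113, 2367 and 1662 in the CharmeKO libraries, that is 3438 ± 487 in WT and 2381 ± 726 in CharmeKO, as mean ± SD of 3 libraries. The highest CharmeKO library, number 1, lay above the lowest WT library, number 2, and the other values did not cross. The log2 fold change was -0.57 (SE 0.26, 95% interval -1.19 to 0.056), a level in CharmeKO of 0.675 times WT, with an adjusted p of 0.9999 (limma, Benjamini-Hochberg). *Skil* was lower in CharmeKO in 3 of 3 pairs (-0.33, -0.32 and -1.05), and pair 3 differed most. With the replicate number as a block the interval was -1.05 to -0.084 and the unadjusted p was 0.0303, a level that 5.37% of all genes reached in that fit and no other member did. Its adjusted p was then 0.7997 by limma and 0.4515 by DESeq2 with the block, so *Skil* passed the threshold in neither. Without both libraries numbered 3 its log2 fold change was -0.32.

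Compared within a library, *Skil* and *Ski* gave a log2 ratio per kb of -2.33, -1.89 and -2.16 in the WT libraries and -2.61, -2.32 and -3.08 in the CharmeKO libraries. The means were -2.13 ± 0.219 in WT and -2.67 ± 0.384 in CharmeKO, and all 3 pairs were lower in CharmeKO by 0.28 to 0.92. WT 1 and CharmeKO 2 were nearly equal (-2.33 and -2.32), so the groups overlapped.

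CharmeKO 3, the library in which *Smad9* and *Skil* were lowest, also had the lowest summed haematopoietic markers (734 normalised reads against 1718 to 17912 in the other libraries, 9 of 9 markers in the table) and the lowest summed endothelial markers (68.7 against 174 to 381, 6 of 8 in the table, with *Tie1* and *Emcn* absent). *Ptprc*, which defines leukocytes, was at 0 there. The summed mesothelial markers were lowest in CharmeKO 3 as well (888 against 1618 to 14834). Its cardiomyocyte sum (158) and its smooth muscle and pericyte sum (5447) were not the lowest. Not every marker was lowest in CharmeKO 3: the haematopoietic *Csf1r* was at 330, above WT 2 (294), and the endothelial *Egfl7* at 27.8, above WT 1 (15.8). The mesothelial *Wt1* was at 217, above WT 1 (213). The part of these cells in the values of *Smad9* and *Skil* was not tested, and in bulk libraries fewer cells of a type and less RNA per cell cannot be told apart.

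The second comparison was between replicate numbers at equal genotype. By limma's F-test 0 of 10 members had an adjusted p under 0.05, where 8.65% of all genes did. The 4 lowest adjusted p among the members were those of *Smad6* (0.0505), *Smad7* (0.0532), *Ski* (0.0558) and *Smad3* (0.0791). The share of all genes at these levels was not counted. At an unadjusted p under 0.05 there were 5 members, these 4 and *Smad5*, against 38.5% of all genes. edgeR called 0 members (and 4.11% of all genes) and DESeq2 5 (32.9% of all genes). The count rested on single libraries, being 7 without WT 3 (37.4% of all genes), 3 without CharmeKO 3 (28.6%) and 0 without any 1 of the other 4 (0%).

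The replicate number held 98.3% of the variance of *Smad3* over the 6 libraries, 97.4% of that of *Ski*, 93.5% of that of *Smad6* and 88.2% of that of *Smad7*, and genotype at most 7.48% in these 4. The median over the members was 73.0% for the replicate number and 12.9% for genotype, beside 73.8% and 5.91% over all genes tested. *Skil* was the exception, with 49.2% for genotype and 32.8% for the replicate number. Between numbers 2 and 1, *Smad6* differed by -1.21, *Ski* by -0.77 and *Smad7* by -0.61 on the log2 scale, while *Smad5* and *Smad1* differed the other way, by 0.68 and 0.46. In both genotypes *Smad2*, *Smad6*, *Smad7*, *Ski* and *Skil* were highest, and *Smad1* and *Smad5* lowest, in the library numbered 1, while *Smad9* was lowest in number 3.

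**Figure D4:**
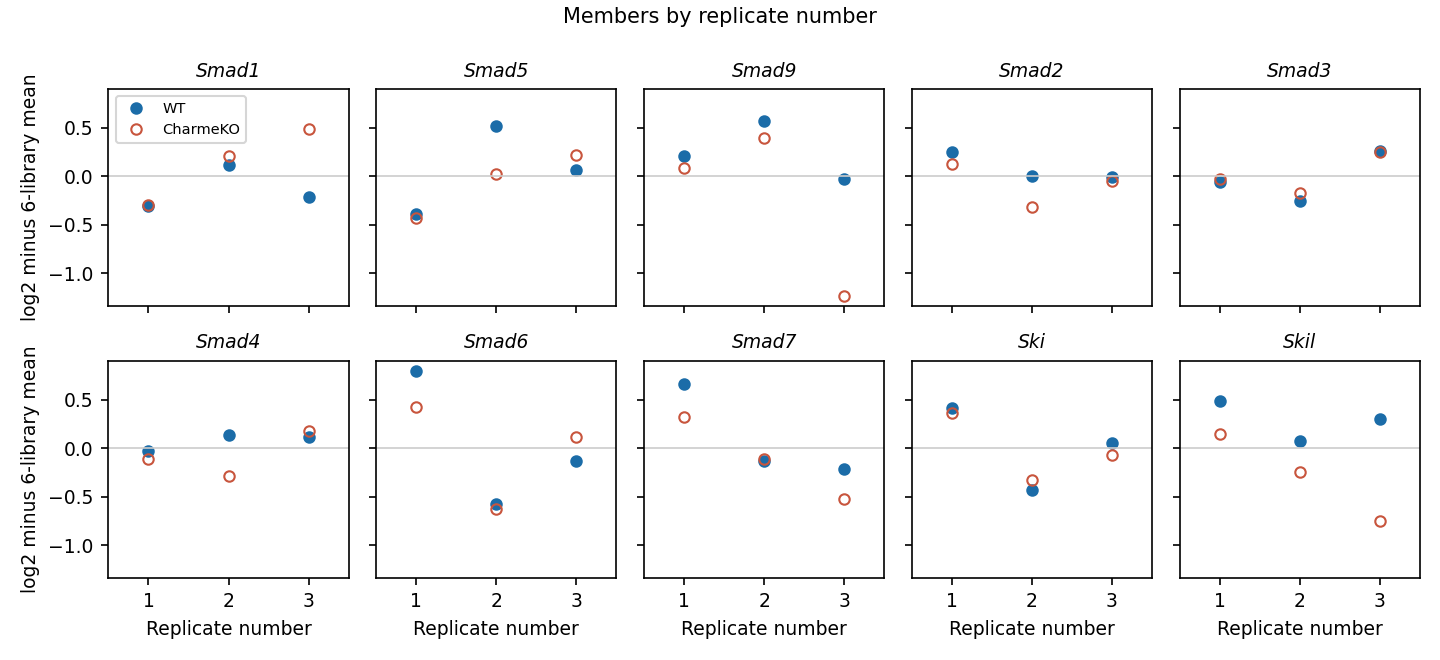
Deviation of each library from the mean of the 6 libraries (log2) by replicate number, WT as filled blue and CharmeKO as open red points. *Smad6*, *Smad7* and *Ski* are highest at number 1 in both genotypes, *Smad5* is lowest there, and *Smad9* and *Skil* fall far below the other points in CharmeKO 3.

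The libraries numbered 1 also had the most mesothelial marker reads, 13180 in WT 1 and 14834 in CharmeKO 1 against 888 to 3642 elsewhere (7 of 8 markers in the table, *Krt8* absent). *Upk3b*, *Upk1b*, *Msln* and *Lrrn4* made up this difference, whereas *Wt1* was higher in the libraries numbered 2 than in those numbered 1. Mesothelial markers were not alone in this. Summed endothelial (299 in WT 1 and 381 in CharmeKO 1, 68.7 to 248 elsewhere) and cardiomyocyte markers (589 and 794, 136 to 346 elsewhere) were also highest in number 1. *Tnnt2* gave 571 and 757 of these cardiomyocyte sums. *Tnni3* was higher in WT 2 (66.2) and CharmeKO 2 (97.3) than in WT 1 (12.8) and CharmeKO 1 (34.6). Of the 6 endothelial markers, 1 was highest in WT 1, 2 in CharmeKO 1, 2 in WT 2 and 1, *Egfl7*, in CharmeKO 2. Haematopoietic sums were highest in number 1 within each genotype (8292 in WT 1, 17912 in CharmeKO 1), with CharmeKO 2 (12218) above WT 1. WT 3 stood apart in the summed smooth muscle and pericyte markers, with 28147 normalised reads against 3624 to 7442 elsewhere. Of these 10 markers 6 were highest in WT 3, led by the contractile gene *Cnn1*, and 4 in WT 2, namely *Rgs5*, *Kcnj8*, *Abcc9* and *Notch3*. What part cell composition had in the levels of *Smad6*, *Smad7* and *Ski* was not tested.

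Across the 6 libraries, which share the pairs just described, *Smad6* and *Ski* followed each other closely (Pearson r = 0.945 of log2 values), *Smad1* and *Skil* ran opposite (r = -0.934), and so did *Smad5* and *Ski* (r = -0.893). *Smad6* and *Smad7* correlated less, with r = 0.657. The paralogs *Ski* and *Skil* gave r = 0.488 and *Smad2* and *Smad3* r = 0.101. These correlations describe 6 libraries and carry no test.

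The genes whose pattern was most like a member were sought among 11723 genes with an SD of at least 0.25 over the libraries. For *Smad6* they were *Hnrnpll* (r = 0.998), the calcium channel gene *Orai1* (r = 0.994) and *Ankrd13c* (r = 0.993). *Orai1* had 1848, 742 and 1024 normalised reads in the WT libraries and 1494, 764 and 1108 in the CharmeKO libraries, high in number 1 and low in number 2 like *Smad6*. Genes with r over 0.9 numbered 624 for *Smad6*, 355 for *Smad7*, 174 for *Smad9* and 178 for *Skil*, so the named genes are only the top of long rankings.

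For *Smad7* the most similar genes were *Kitl*, which encodes stem cell factor (r = 0.997), *Gpr89* (r = 0.991) and the proton pump subunit gene *Atp6v1a* (r = 0.986). *Kitl* had 4232, 2097 and 2064 normalised reads in the WT libraries and 3229.5, 2130.4 and 1594 in the CharmeKO libraries. For *Smad9* they were *Dpyd*, the first enzyme of pyrimidine breakdown (r = 0.997), *Ttc12* (r = 0.995) and *Dock10* (r = 0.988), and all 3 were lowest in CharmeKO 3, *Dpyd* at 24.4 normalised reads and *Dock10* at 17.4. For *Skil* they were the kinase gene *Wnk3* (r = 0.994), the mitochondrial assembly factor gene *Ndufaf2* (r = 0.986) and *Xkr4* (r = 0.985). *Wnk3* had 266, 180.4 and 237 normalised reads in the WT libraries and 194, 149 and 102 in the CharmeKO libraries.

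Ligands, receptors, turnover factors, partners and response genes around the Smads were described with 6 lists of 123 genes, of which 117 were tested. None of the 117 had an adjusted p under 0.05 (limma; edgeR called 0 genes in the whole table and DESeq2 8), and 1 had an unadjusted p under 0.05. With the replicate number as a block, again 0 passed the adjusted threshold, and 19 had an unadjusted p under 0.05 (17 lower and 2 higher in CharmeKO), which is 16.2% of the 117 beside 5.37% of all genes. Of the 117 genes, 83 had a negative and 34 a positive fold change, with a median of -0.15 beside 0.0022 over all genes tested. In all 3 pairs 30 were lower in CharmeKO (25.6%, beside 14% of all genes) and 5 higher (4.27%, beside 16.4%). The lists were chosen with earlier results of these data known. Their genes also share the same 6 libraries, so counts over a list describe that list and carry no test. The genes named below are the 2 of each list with the lowest p, and none passed the threshold. Choosing by p favours genes whose groups do not overlap, as was seen in 4.11% of all genes tested. How many genes of the lists did not overlap was not counted.

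Of 13 TGF-β and activin ligands and receptors tested, 8 had a negative fold change, and the median was -0.25. *Acvr2a*, an activin type II receptor, had 849, 925 and 1040.4 normalised reads in the WT libraries and 719, 609 and 731 in the CharmeKO libraries, without overlap between the groups. Its log2 fold change was -0.45 (SE 0.18) and its unadjusted limma p of 0.045 was the single one under 0.05 in the lists (adjusted p = 0.9999). *Inhba*, which encodes the activin A subunit, had 5293, 1550.3 and 5574 in the WT libraries and 3345, 685 and 2041 in the CharmeKO libraries, lower in each pair but overlapping between groups.

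Of 10 BMP ligands and receptors tested, 6 had a negative fold change, with a median of -0.25. *Bmpr2*, the BMP type II receptor upstream of *Smad1*, *Smad5* and *Smad9*, had 8469, 9599 and 8928 normalised reads in the WT libraries and 5912, 8057 and 6991 in the CharmeKO libraries, a log2 fold change of -0.37 (SE 0.17) with no overlap. The ligand gene *Bmp2* was low, at 40.4, 131 and 69.2 in the WT libraries and 33.6, 33.4 and 27.8 in the CharmeKO libraries.

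The list of turnover factors, phosphatases and anchors held 29 genes, 22 of them with a negative fold change, with a median of -0.077. *Usp9x*, a deubiquitinase that acts on *Smad4*, had a log2 fold change of -0.35 (SE 0.17) and *Wwp2*, an E3 ligase that targets Smads, -0.45 (SE 0.23). *Usp9x* values did not overlap (12321, 12743 and 11675 normalised reads in the WT libraries, 9234, 8578 and 11079 in the CharmeKO libraries). Of 28 nuclear partners, 24 had a negative fold change (median -0.17), among them the repressor *Zeb1* at -0.44 (SE 0.19) and, for the transcription factor gene *Mecom*, 1285, 538 and 1412 normalised reads in the WT libraries and 894, 246 and 554 in the CharmeKO libraries.

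Among 26 TGF-β response genes, 16 had a negative fold change and 7 were lower in all 3 pairs, with a median of -0.31. The summed smooth muscle and pericyte markers were also lower in CharmeKO in each pair (4670, 7442 and 28147 normalised reads in the WT libraries, 3624, 3762 and 5447 in the CharmeKO libraries), and their part in this list was not tested. *Cnn1* alone gave 14655 of the sum in WT 3. Single markers went the other way in a pair: *Cnn1* (774 in WT 1, 978 in CharmeKO 1), *Notch3* (1672 in WT 3, 2834 in CharmeKO 3) and *Rgs5* (51.6 in WT 3, 75.7 in CharmeKO 3). *Snai1*, a transcription factor of mesenchymal transition, had a log2 fold change of -0.36 (SE 0.18) and the oxidase gene *Nox4* -0.64 (SE 0.46). Of 11 BMP response genes tested, 7 had a negative fold change and 1 was lower in all 3 pairs, with a median of -0.076. *Hey1*, a Notch and BMP target, had 27.6, 24.6 and 13.2 normalised reads in the WT libraries and 16.3, 4.92 and 2.61 in the CharmeKO libraries, and *Msx2* was also near the bottom of the range, so both rest on few reads. The replicate number passed the threshold in 22 of the 117 genes (18.8%, beside 8.65% of all genes), 7 of them TGF-β response genes and 0 BMP response genes.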

How the data were processed

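The authors aligned the reads of directional poly(A) libraries with STAR, counted them per gene on the reverse strand with an Ensembl annotation to which *Charme* had been added, dropped genes of low coverage and scaled the counts with DESeq2. Builds named in the sources are GRCm39 and, in the submitters' processing notes, also GRCh38; coordinates and lengths given here come from GRCm38 and only place the genes. The deposited values are a normalised signal, that is, read counts per gene after division by a library-wide factor. Each was a whole multiple of the worth of 1 read, and 100% of 116676 values came out whole within 1e-06 reads. The depth of 38330019 to 46797446 reads leaves counting error small beside the spread between libraries for all members.

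Sample titles gave the group and the replicate number. The main test was limma 3.58.1 (R 4.3.3) with its trend option on log2(value + 1), genotype alone, over the 15948 genes that reached 10 reads in 2 or more libraries, two-sided, Benjamini-Hochberg over all of them with a threshold of 0.05. The replicate number was tested with limma's F-test beside genotype. On the recovered reads the edgeR 4.0.16 quasi-likelihood test and DESeq2 1.42.0 were alternatives. Scripts were tested on simulated data. Exact permutation of 3 against 3 libraries could not reach the threshold and was not used.

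Same-numbered libraries correlated with r = 0.762, 0.514 and 0.217 in their deviations from the group means, against -0.643 to 0.222 for different numbers. They also follow each other in the library names, so the numbers were taken as pairs. Centring each group on its own mean pushes the other correlations down when 1 is positive, so this contrast is partly set by the centring. The labels do not say what same-numbered libraries share, nor whether libraries came from separate cultures. The p-values measure only the spread between these libraries, which may be technical.

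Members and gene lists were chosen with earlier results of these data known. Named are all members, the 2 genes of each list with the lowest p, the 3 genes most correlated with *Smad6*, *Smad7*, *Smad9* and *Skil*, and *Charme*. Marker genes, overlapping genes and genes described for sequence are named beside the results that they touch. Per kb values divide by the union of exons (GENCODE, GRCm38). Protein sequences were not used here. Figures were made in Python 3.11.15 and matplotlib 3.10.9.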

Additional observations from a re-analysis of the deposited data

How the results depend on the processing

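No member was called for genotype under any of the 20 alternatives (other pseudocounts, read filters, scalings, edgeR, DESeq2, the replicate block, libraries left out), and the replicate block changed no call of a member. The count over all genes was 0 in limma, 8 with DESeq2 and 64 with DESeq2 and the replicate block. For the replicate number, 1379 genes became 655 with edgeR, 4944 with DESeq2 and 0 to 5906 when 1 library was left out. The 0 members became 1 with at least 50 reads (12% of all genes) and 2 with a pseudocount of 10 (10.4%). They became 5 with DESeq2 (32.9%) and 0 to 7 when 1 library was left out (0% to 37.4%).

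Of 200 alternative log2 fold changes of members, 14 turned sign, none past the threshold. *Ski* turned from -0.025 to 0.0098 when scaled by library totals, a scaling that moved the median of all genes from 0.0022 to 0.036. Leaving out libraries gave ranges of -0.25 to 0.18 for *Ski*, -0.36 to 0.33 for *Smad6*, -0.42 to 0.068 for *Smad7*, -0.35 to 0.10 for *Smad5* and -0.083 to 0.17 for *Smad3*. *Skil* ranged from -0.78 to -0.32, *Smad9* from -0.82 to -0.0077, *Smad1* from 0.049 to 0.48 (0.090 without CharmeKO 3), *Smad2* from -0.26 to -0.045 and *Smad4* from -0.27 to -0.016, these last being -0.045 and -0.044 without CharmeKO 2. Leaving out both libraries of a number, an alternative chosen after seeing the data, turned *Smad6* to 0.10 without number 1, *Smad5* to 0.060 without number 2 and *Ski* to 0.028 without number 3. The causes were not tested. *Smad9*, the member with the fewest reads, had the widest interval.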
